A study of Mus musculus with 10 samples.

Results

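The protein-coding genes of ribosomal proteins were examined in the mouse atrium, taken by symbol from the RefSeq annotation of the build mm10 (GRCm38.p6): Rps and Rpl for the small and large subunit of the cytosolic ribosome, and Mrps and Mrpl for those of the mitochondrial ribosome. The S6 kinase genes, whose symbols begin in the same way, were left out. Of 169 genes so taken, 52 carried at least 1 region of changed chromatin accessibility, and together they carried 67 of the 10010 regions listed. Because the symbol alone decided, the 169 also hold entries such as Rps19bp1, Rps23rg1, Rpl31-ps12 and Rps27rt, which may not encode ribosomal proteins. These had no listed region and count among the genes without one. A region was given to a gene when it overlapped the gene's span, or when it lay outside every protein-coding span with that gene nearest and within 100 kb. The farthest region so included lay 56896 bases from Mrps28 (log2 fold change 0.55), and the nearest left out lay 281791 bases from Rps24 (0.65).

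The study compared adult mice of 8 to 12 weeks of 2 genotypes. Tbx5G125R mice carry 1 copy of Tbx5, the gene of a T-box transcription factor of the atrium, with a glycine-to-arginine change in the DNA-binding domain, introduced with CRISPR-Cas9, and Control mice do not carry it. Nuclei of the left and right atrium of each animal were pooled, stained for PCM1, a protein of the nuclear surface of cardiomyocytes, and sorted, and open chromatin was read by ATAC-seq, in which a transposase cuts accessible DNA. Each of the 4 Tbx5G125R animals gave 1 library, and the 4 Control animals gave 6, since Control replicates 1 and 3 had repeat libraries, which were summed.

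The cytosolic ribosome translates the messenger RNAs of the nucleus, and its proteins are made in near equal numbers from genes that are active in every cell. The mitochondrial ribosome translates only the few messenger RNAs of the mitochondrial genome, which encode core subunits of the respiratory chain and of ATP synthase, and all of its proteins are encoded in the nucleus and imported. Cardiomyocytes are rich in mitochondria and depend on both ribosomes to maintain their contractile and respiratory proteins.

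Because the table lists only regions that the authors had called different on these same animals, the call and the direction of each region were fixed in advance. In the fit made here, 100% of the listed regions passed the test, 88.4% as gained in Tbx5G125R and 11.6% as lost, so that the calls at ribosomal protein genes are given as a description. Values are scaled counts, read as those of the leading 500-bp bin of a region and divided by a size factor per animal. No source states which interval was counted. Median scaled counts rose from 73.3 at regions of 500 bp to 199.4 at regions of 1000 bp. Differences in level between regions or classes are therefore not separated from region length. Changes are log2 fold changes of Tbx5G125R over Control with their standard errors. Nothing can be said of accessibility at the 117 genes without a listed region, and no listed count in any library was above 995. Summed counts over the listed regions ran from 630392 to 2776475 per animal, with Control replicate 2 the shallowest. All 12 cardiomyocyte markers checked had listed regions (44 gained, 13 lost), whose summed scaled count was 9663 to 9999 in Control and 15474 to 17313 in Tbx5G125R. Of endothelial markers 2 of 7 (Kdr with 9 regions and Pecam1 with 1) did, and their sum was 518 to 646 in Control and 1294 to 1348 in Tbx5G125R. For fibroblast markers (2 of 8 genes) the sums were 294 to 341 and 495 to 562, for smooth muscle and pericyte markers (3 of 6) 238 to 311 and 408 to 498, and none of 6 leukocyte markers had a region. Whether nuclei of other cell types had a part in the changes below was not tested, and a change per nucleus cannot be told apart from a change in the share of nuclei.

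Promoter sequences bear on these data because 36 of the 67 regions lay within 1 kb of a gene start. The starts of 8 genes are shown, each from 150 bases before to 20 bases after the RefSeq start and read 5′ to 3′ on the gene's strand. Rps19, Rpl13a and Mrpl34 are shown as the starts with the highest level of their class, Rps21 and Mrpl16 for a strong gain, Mrps14 for a weak one, and Rpl19 and Mrpl45, both on chromosome 11, because they hold the core of the NRF1 motif. Capitals mark the core motifs of 3 transcription factors or families known from promoters of housekeeping genes, on either strand: ETS (CCGGAAG), YY1 (CCATNTT) and NRF1 (TGCGCA).
Rps19 (chr7:24884442-24884611, plus strand): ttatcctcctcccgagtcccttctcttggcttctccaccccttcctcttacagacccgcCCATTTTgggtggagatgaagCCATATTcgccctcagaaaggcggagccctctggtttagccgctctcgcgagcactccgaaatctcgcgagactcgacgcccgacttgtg
Rps21 (chr2:180257229-180257398, plus strand): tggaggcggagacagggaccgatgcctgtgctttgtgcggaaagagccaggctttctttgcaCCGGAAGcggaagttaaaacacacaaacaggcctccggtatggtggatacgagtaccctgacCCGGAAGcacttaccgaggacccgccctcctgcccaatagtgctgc
Rpl13a (chr7:45128726-45128895, minus strand): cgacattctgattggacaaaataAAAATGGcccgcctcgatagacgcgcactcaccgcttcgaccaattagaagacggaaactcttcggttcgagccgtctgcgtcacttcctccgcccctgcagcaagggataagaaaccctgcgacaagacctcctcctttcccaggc
Rpl19 (chr11:98026560-98026729, plus strand): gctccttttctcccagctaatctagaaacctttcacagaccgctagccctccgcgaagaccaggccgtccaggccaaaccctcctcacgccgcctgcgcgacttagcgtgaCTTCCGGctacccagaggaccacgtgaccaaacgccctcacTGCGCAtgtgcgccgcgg
Mrps14 (chr1:160195065-160195234, plus strand): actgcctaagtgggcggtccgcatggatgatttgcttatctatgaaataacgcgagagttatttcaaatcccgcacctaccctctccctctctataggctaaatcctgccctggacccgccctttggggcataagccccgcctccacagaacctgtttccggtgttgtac
Mrpl16 (chr19:11770265-11770434, plus strand): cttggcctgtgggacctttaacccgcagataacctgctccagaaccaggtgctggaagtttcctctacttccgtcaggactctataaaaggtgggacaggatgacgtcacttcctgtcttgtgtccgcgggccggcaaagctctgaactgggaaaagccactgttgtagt
Mrpl34 (chr8:71464776-71464945, plus strand): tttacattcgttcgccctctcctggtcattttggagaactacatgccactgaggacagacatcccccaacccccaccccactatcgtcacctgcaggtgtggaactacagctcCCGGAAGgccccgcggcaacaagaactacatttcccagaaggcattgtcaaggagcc
Mrpl45 (chr11:97315566-97315735, plus strand): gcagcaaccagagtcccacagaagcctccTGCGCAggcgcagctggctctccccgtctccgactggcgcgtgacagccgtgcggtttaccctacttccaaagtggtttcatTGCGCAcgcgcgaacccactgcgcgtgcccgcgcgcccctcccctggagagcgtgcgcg

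Rps19 held a pair of YY1 cores, Rps21 a pair of ETS cores and Mrpl45 a pair of NRF1 cores. Rpl19 held an ETS core upstream of an NRF1 core, whereas no marked letters fell in the windows of Mrps14, the weakest gain among the Mrps genes, and Mrpl16, the strongest gain at a start among the Mrpl genes. RefSeq promoters of 300 bases (250 before to 50 after the start) were matched for 139 of the 169 genes. ETS cores stood in 35.3% of these promoters, against 11.9% of all 17492 protein-coding promoters. YY1 cores stood in 32.4% against 15.4%, and NRF1 cores in 23.7% against 10.1%. Mitochondrial genes held the NRF1 core in 30.4% of promoters and cytosolic genes in 17.1%. The T-box core GGTGTGA was in 0 of the 139 promoters and in 3.68% of all promoters, which says only that these letters were not in these windows.

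These motif shares differed little between the 35 promoters with a listed region within 1 kb of the start and the 104 without. The ETS core was in 31.4% and 36.5%, the YY1 core in 34.3% and 31.7%, and the NRF1 core in 22.9% and 24.0%. The SP/KLF core GGGCGG, a GC box that can share 2 letters with an ETS core, was in 26 of 35 promoters with a region (74.3%) and in 46.2% of those without. Over all genes a contrast in the same direction was present. The GC box was in 76.7% of the promoters with a region and in 46.3% of all promoters, which include those with a region. Promoters with a region held a median of 25 CpG dinucleotides at the 35 genes and at all 2977 genes with a region at the start, against 20 at the ribosomal protein genes without one and 13 over all promoters. The MEF2 core TATTTNT was in 7.91% of the 139 promoters (16.2% of all) and the E-box CAGCTG in 11.5% (15.1%). A C at the start followed by 4 pyrimidines, the known mark of transcripts under mTOR control and a measure chosen after the values were seen, began 14 of 70 cytosolic transcripts (20%), 0 of 69 mitochondrial ones and 2.17% of all transcripts. Of the cytosolic genes, 2 of 19 with a region at the start had it and 12 of 51 without. Sought within 5 bases of the start, it was found at 44.3% of cytosolic, 23.2% of mitochondrial and 18.8% of all starts, and at 34.3% of the 35 genes with a region and 33.7% of the 104 without. Only the outermost RefSeq start of each gene was read. That start may not be the one used in the atrium, so these shares can miss transcripts that carry the mark.

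**Figure D1:**
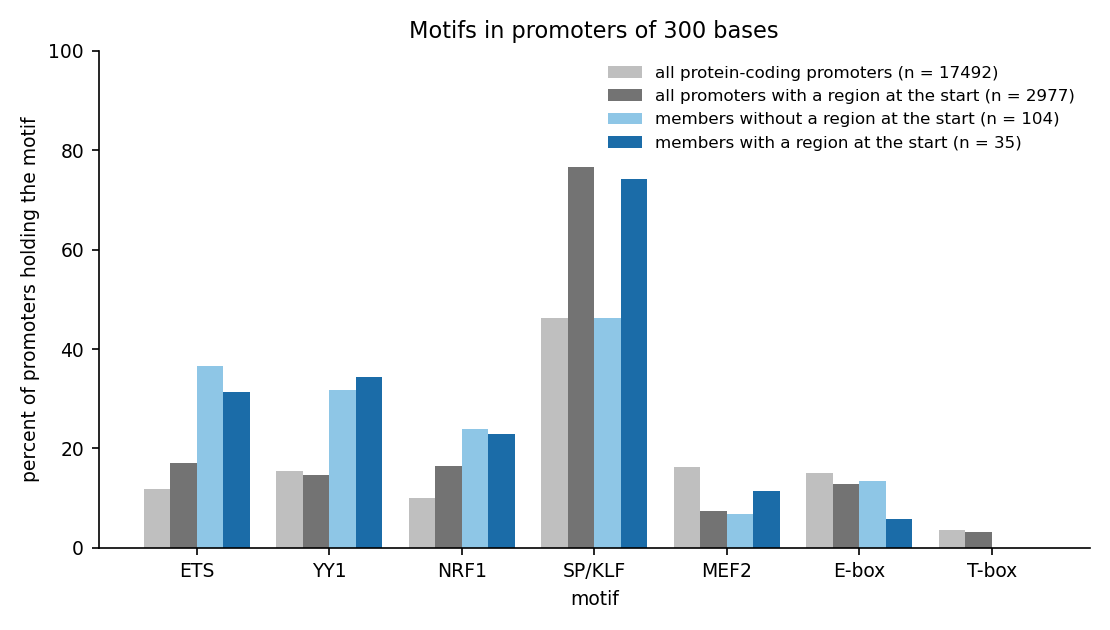
Percent of promoters of 300 bases that hold each core motif on either strand, for all protein-coding promoters, all promoters with a listed region at the start, and ribosomal protein genes without and with such a region. ETS, YY1 and NRF1 cores stand apart between ribosomal protein genes and all genes, whereas the SP/KLF core stands apart between promoters with and without a region (74.3% against 46.2% of the ribosomal protein genes).

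Accessibility was higher in Tbx5G125R at 66 of the 67 regions (98.5%) and lower at 1, beside 88.4% and 11.6% over all regions. The median change was 0.71 (quartiles 0.60 and 0.84), beside 0.72 for all regions (quartiles 0.58 and 0.93). The median level was 150.4 in Control and 241.0 in Tbx5G125R, above the 103.0 and 169.4 of all regions. A gain of at least 2-fold was seen at 6 of the 67 regions, where 20.2% of all regions gained that much. Of the 67 regions, 36 lay within 1 kb of a start, and all 36 gained, 0 of them 2-fold. Of all 2874 regions at a protein-coding start, 99.1% gained, 107 of them at least 2-fold, at median levels of 219.3 and 341.0. Whether position accounts for the differences from all regions was not tested. Animals of the genotypes did not overlap at 64 of 67 regions (92.7% of all regions), and the exceptions were Rps24, Rps3a1 and the second of 3 Mrps28 regions. The largest changes of each class named below were picked among regions without overlap, so the separation of their groups is part of the choice. In size, the gain at ribosomal protein genes lay in the middle of this table.

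The 4 classes gave similar median changes, namely 0.74 at 9 Rps regions, 0.69 at 24 Rpl regions, 0.79 at 14 Mrps regions and 0.70 at 20 Mrpl regions. The cytosolic genes (33 regions at 29 of 91 genes) and the mitochondrial genes (34 regions at 23 of 78 genes) had medians of 0.70 and 0.72. Mrps regions had the lowest median level, with 90.3 in Control and 153.0 in Tbx5G125R, and Rps regions the highest, with 167 and 284. The median region length was 750 bp for Mrps and 1000 bp for Rps, and whether length accounts for this difference in level was not tested. Gains were larger at regions of lower Control level, here and in the whole table, but the Control level is part of the fold and a region of low count needs a larger fold to be listed, so nothing is read from this order. With the gained regions of the table split by Control level into 3 equal bins, the median change was 1.05 at the 12 ribosomal protein regions in the low bin (1.06 over all), 0.74 at 31 in the middle bin (0.71) and 0.63 at 23 in the high bin (0.62).

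**Figure D2:**
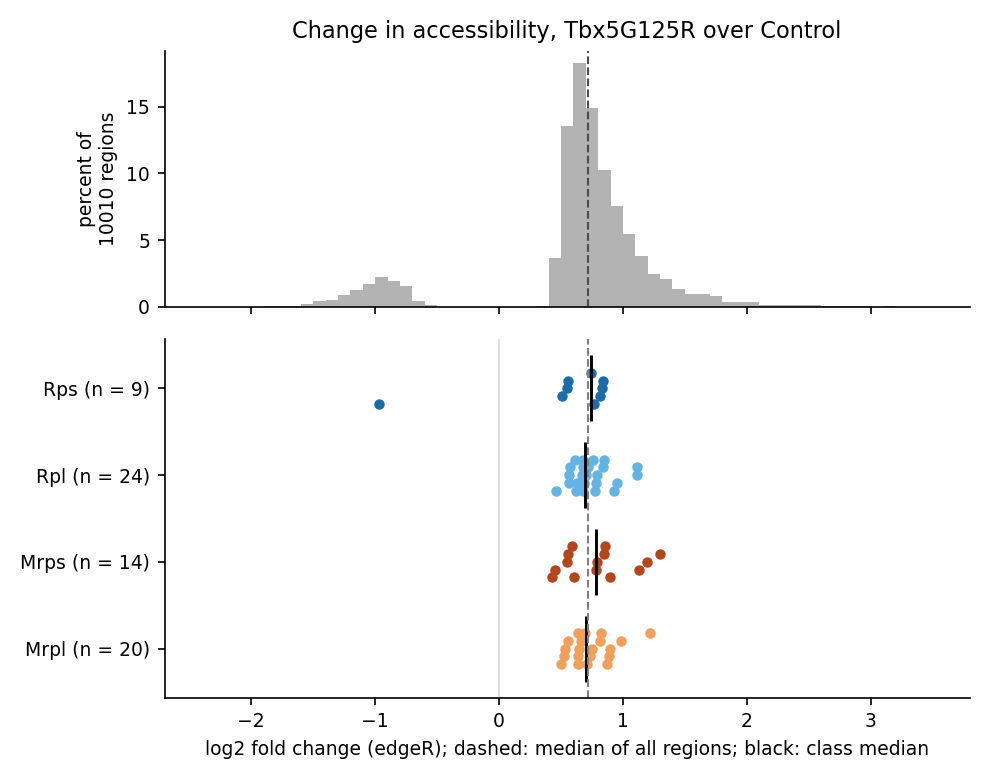
Top, percent of the 10010 listed regions in each bin of the log2 fold change, Tbx5G125R over Control. Bottom, each region of a ribosomal protein gene by class (vertical offsets only separate the points), with the class median in black and the median of all regions (0.72) dashed. The class medians lie between 0.69 and 0.79, and a single Rps region, at Rps24, lies below 0.

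**Figure D3:**
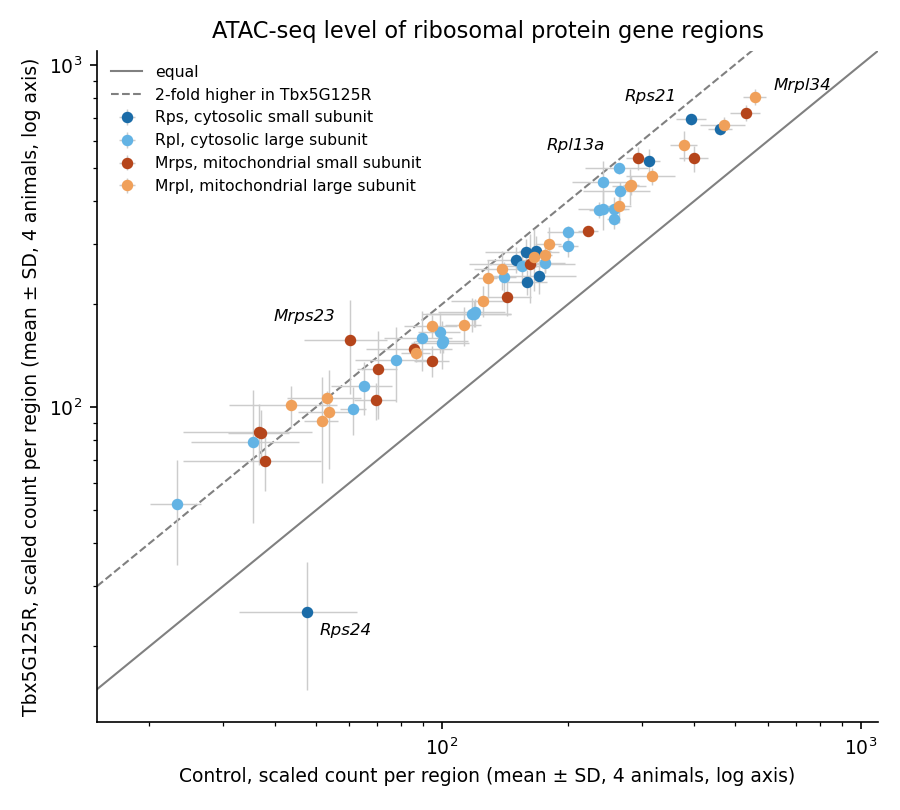
Mean scaled count of each of the 67 regions in Control (x, log axis) and Tbx5G125R (y, log axis), with the SD over 4 animals, by class. All points but Rps24 lie above the line of equal values, and few reach the dashed line of a 2-fold gain.

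Among genes of the cytosolic small subunit, 9 of 35 had a region, and 8 of these gained accessibility. Rps19, needed for maturation of the small subunit's RNA and mutated in human Diamond-Blackfan anaemia, had the highest level and the smallest gain of its class at chr7:24884001-24885000, over the printed start. The Control animals had scaled counts of 446, 495, 427 and 480.3 and the Tbx5G125R animals 639, 621, 659.5 and 679. Every Tbx5G125R animal lay above every Control animal, with a log2 fold change of 0.51 ± 0.08 (SE) and an edgeR adjusted p of 4.25e-06. Rps21, a small-subunit protein with no bacterial counterpart, gained more at chr2:180256751-180257750. Its counts were 404, 376, 362 and 435 in Control and 677, 664, 724 and 706 in Tbx5G125R. The groups were well apart, and the change was 0.82 ± 0.08 (adjusted p = 7.58e-09).

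Rps2 and Rpsa gained by similar amounts at lower levels. Rps2, which lines the entry of the messenger RNA channel, had 159.6, 128, 144 and 202 in Control and 246, 293, 290.3 and 306 in Tbx5G125R at chr17:24719501-24720500. Rpsa, also known as a laminin receptor and mutated in human congenital asplenia, had 167, 128, 135 and 172 and 268, 301, 265 and 244 at chr9:120127251-120128250. In both genes all Tbx5G125R animals exceeded all Control animals, by 0.84 ± 0.12 and 0.83 ± 0.12 on the log2 scale (adjusted p = 1.09e-06 and 8.75e-07). Gains at Rps3a1, Rps9 and Rps12 were 0.55, 0.56 and 0.74, and at Rps3a1 the highest Control animal passed the lowest Tbx5G125R animal.

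Rps24, a further Diamond-Blackfan gene whose product helps process the small subunit's RNA, held the only lost region, at chr14:24495751-24496500, inside its span and 4998 bases from the start. Scaled counts were low, at 55.7, 25.5, 57.6 and 52.0 in Control and 15.8, 30.8, 36.6 and 17.4 in Tbx5G125R. Control replicate 2, the shallowest library, lay below 2 of the Tbx5G125R animals, so that the groups overlapped. The change was -0.97 ± 0.29 with an adjusted p of 0.00233. No listed region covered the start of Rps24, so its promoter could not be set beside this value. With equal factors for all libraries, the change was -0.65 with an edgeR adjusted p of 0.121. That setting drops the scaling within and between genotypes together. With the scale between genotypes from lost regions alone, the change was -1.145. This scale lowers the changes of all regions together (log2 offset 0.47 in place of 0.29). It therefore cannot test whether a lost region stays called.

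Large-subunit genes of the cytosolic ribosome had 24 regions at 20 of 56 genes, and every one gained. Rpl13a, a surface protein of the large subunit that also acts in translational silencing in human monocytes, stood out by level and by gain at chr7:45128501-45129500. The counts were 244, 251, 232 and 332 in Control and 504, 496, 476 and 518 in Tbx5G125R. Control replicate 4 was the highest Control animal and still lay below all Tbx5G125R animals. The change was 0.93 ± 0.10 (adjusted p = 1.88e-08).

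The 3 largest Rpl changes lay outside the span of a gene. Rpl26, a protein of the tunnel exit that also binds p53 messenger RNA in human cells, had a pair of regions outside its span. The second one, at chr11:68909001-68909750, had 24.96, 20.9, 27.0 and 20.3 in Control and 60.5, 43.3, 32.9 and 72.5 in Tbx5G125R. The groups did not overlap but the Tbx5G125R animals were spread over more than 2-fold, and the change was 1.11 ± 0.28 (adjusted p = 0.000505). Its first region changed by 1.11 ± 0.26, with Tbx5G125R replicate 1 at 128.9 and the other animals of that genotype at 57.0 to 68.3. Rpl29, a protein that mice can live without, gained 0.95 ± 0.12 at a stronger region 21639 bases outside its span (chr9:106405001-106407250, means 243 ± 38.4 and 456 ± 67.7), and Rpl12, at the base of the stalk that recruits elongation factors, gained 0.85 ± 0.16 at chr2:32966501-32967500.

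Other Rpl genes gained by amounts close to the class median. The stalk protein genes Rplp0, Rplp1 and Rplp2 changed by 0.72, 0.62 and 0.57. Rpl10, which joins the large subunit last, changed by 0.78, and Rpl19, whose start is printed above, by 0.61 ± 0.14 from 114, 102, 107 and 79.8 in Control to 169.6, 159.7, 140.0 and 156 in Tbx5G125R. Rpl22l1, a paralogue that can replace Rpl22 in the ribosome, had 214, 235, 316 and 298 and 405, 405, 436 and 463 at chr3:28805001-28805750. Its groups were apart and the change was 0.68 ± 0.11 (adjusted p = 4.43e-06). Rpl3, which reaches towards the peptidyl transferase centre, had a pair of regions with changes of 0.70 and 0.67, and Rpl3l, its paralogue in striated muscle, had no listed region.

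**Figure D4:**
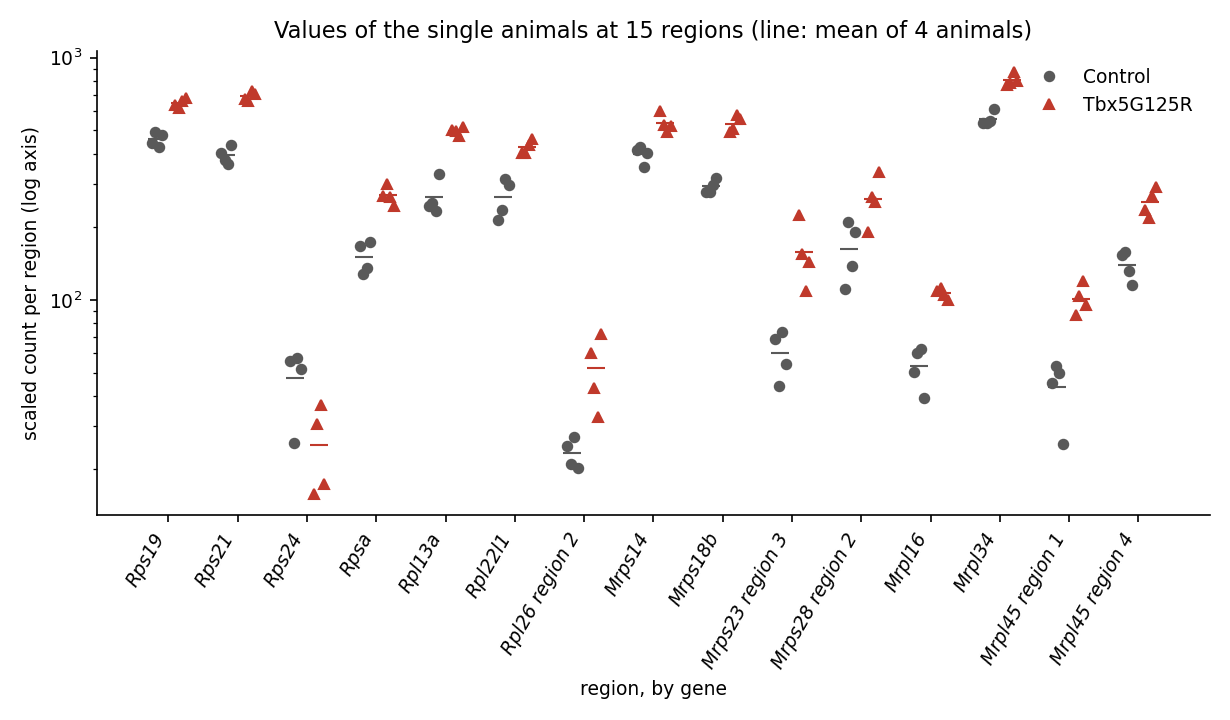
Scaled counts (log axis) of the single animals at 15 named regions, with Control as circles, Tbx5G125R as triangles and the mean of 4 animals as a line. The genotypes are apart except at Rps24 and at Mrps28 region 2.

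In the mitochondrial small subunit, 8 of 29 genes had a region, and all 14 regions gained. Mrps23, a protein with no bacterial counterpart, had 4 regions, 1 inside its span and 3 beyond it, the farthest by 23744 bases. The third, at chr11:88217001-88219000, showed the largest change of all 67 regions. Its counts were 69.1, 44.1, 73.4 and 54.5 in Control and 224, 155, 109 and 143 in Tbx5G125R. Tbx5G125R replicate 1 was highest and the lowest Tbx5G125R animal still lay above all Control animals, with a change of 1.30 ± 0.19 (adjusted p = 1.12e-06). The other Mrps23 regions changed by 0.89, 0.61 and 0.85.

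Mrps35 and Mrps21 also gained more than 2-fold, at regions of low level. Mrps35 had 33.1, 23.2, 36.7 and 53.2 in Control and 65.8, 93.3, 104 and 76.3 in Tbx5G125R at chr6:147058751-147059500, a change of 1.20 ± 0.22 (adjusted p = 2.31e-05). Mrps21 had 37.1, 30.2, 44.9 and 35.5 and 94.7, 65.4, 80.8 and 94.7 at chr3:95864751-95865500, inside its span, a change of 1.13 ± 0.21. Neither gene's groups overlapped, which was a condition for naming them. Mrps18b, 1 of 3 related Mrps18 proteins in mammals, had the strongest gain at a start of this class: 279.7, 279, 299 and 319 in Control and 492, 505, 578 and 558 in Tbx5G125R at chr17:35916001-35917250, a change of 0.86 ± 0.09 (adjusted p = 1.04e-08).

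The smallest gains of the class were at strong regions. Mrps14, whose start is printed above, had 414, 427, 355 and 404 in Control and 601, 524, 491 and 521 in Tbx5G125R at chr1:160194751-160195250, with a change of 0.42 ± 0.09 (adjusted p = 9.61e-05). Its groups were apart. Mrps28 had 3 regions, and its strongest, at chr3:8923501-8924250, changed by 0.46 ± 0.08 from a Control mean of 531 ± 43.6. At the second region (chr3:8893251-8894000) Control animals ran from 110.3 to 209 and Tbx5G125R animals from 191 to 337, so that the groups overlapped although the change was 0.78. Mrps6 gained 0.56 at its start and 0.79 at a region beyond its span, and Mrps30, whose protein sits in the large subunit despite its symbol, gained 0.59.

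In the mitochondrial large subunit, 15 of 49 genes had a region, and all 20 regions gained. Mrpl45, which sits at the tunnel exit and holds the ribosome to the inner membrane, had 3 regions before its start and 1 at it. The first, 14423 bases outside the span at chr11:97299751-97300500, had 45.3, 53.4, 49.98 and 25.4 in Control and 86.8, 104, 119 and 94.7 in Tbx5G125R. Control replicate 4 was the lowest, the groups were apart, and the change was 1.22 ± 0.20 (adjusted p = 6.85e-06). The other 2 upstream regions changed by 0.89 ± 0.14 and 0.71 ± 0.14. At the printed start (chr11:97315251-97316250) the counts were 153, 158, 131 and 115 in Control and 234, 218, 268 and 293 in Tbx5G125R. These did not overlap either, with a change of 0.87 ± 0.13 (adjusted p = 9.42e-07).

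Mrpl16, counterpart of a bacterial protein near the peptidyl transferase centre, had the largest gain at any start of the 67 regions, at chr19:11770001-11770750. Counts were 50.5, 60.4, 62.7 and 39.3 in Control and 109, 112, 104 and 99.5 in Tbx5G125R. The Tbx5G125R animals lay close together and far above the Control animals, with a change of 0.99 ± 0.18 (adjusted p = 1.93e-05). Mrpl2, a core protein bound to the ribosomal RNA, gained 0.90 ± 0.12 at chr17:46645501-46646750, from 121, 125.4, 134 and 134 in Control to 235, 249, 200.1 and 273 in Tbx5G125R.

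Mrpl34 had the highest level of all 67 regions and a gain below the median, at chr8:71464251-71465250. Its counts were 537, 539, 545 and 612 in Control and 772, 788, 873 and 800.0 in Tbx5G125R. Control replicate 4 stood apart from the other Control animals but below every Tbx5G125R animal, and the change was 0.54 ± 0.08 (adjusted p = 1.3e-06). Mrpl47, the smallest gain of the class, rose from 471 ± 58.5 to 667 ± 36.1 (SD, n = 4) at chr3:32736501-32737250, a change of 0.50 ± 0.09. Mrpl48 had a region at its start with a change of 0.65 ± 0.09 and a pair of weak regions far inside its span. There Tbx5G125R replicate 1 stood at 142 and 137, above the 66.7 to 88.9 of the other Tbx5G125R animals, and the changes were 0.81 ± 0.21 and 0.83 ± 0.21.

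Most regions of ribosomal protein genes lay at a start. Of 54 regions whose gene had a tabulated start, 36 (66.7%) were within 1 kb of it, and the leading bin held the start itself at 31 of them. Over all regions the share was 39.0% (2853 of 7321). Many ribosomal protein genes are short, which leaves little span away from the start, and these shares were not matched for gene length. Counted by gene, 35 of 139 (25.2%) had a region at the start, beside 17% of all 17492 genes with a tabulated start. By class these were 7 of 27 Rps, 12 of 43 Rpl, 4 of 26 Mrps and 12 of 43 Mrpl genes. The set of all genes was not limited to genes active in cardiomyocytes. Regions at the start had a median change of 0.66 at levels of 200.1 and 309.8, close to the 0.64, 219 and 341 of all 2874 regions at a protein-coding start. The 12 regions outside a span had a median of 0.85 at levels of 67.4 and 129.6. The 6 inside a span away from the start, Rps24 among them, had a median of 0.82.

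**Figure D5:**
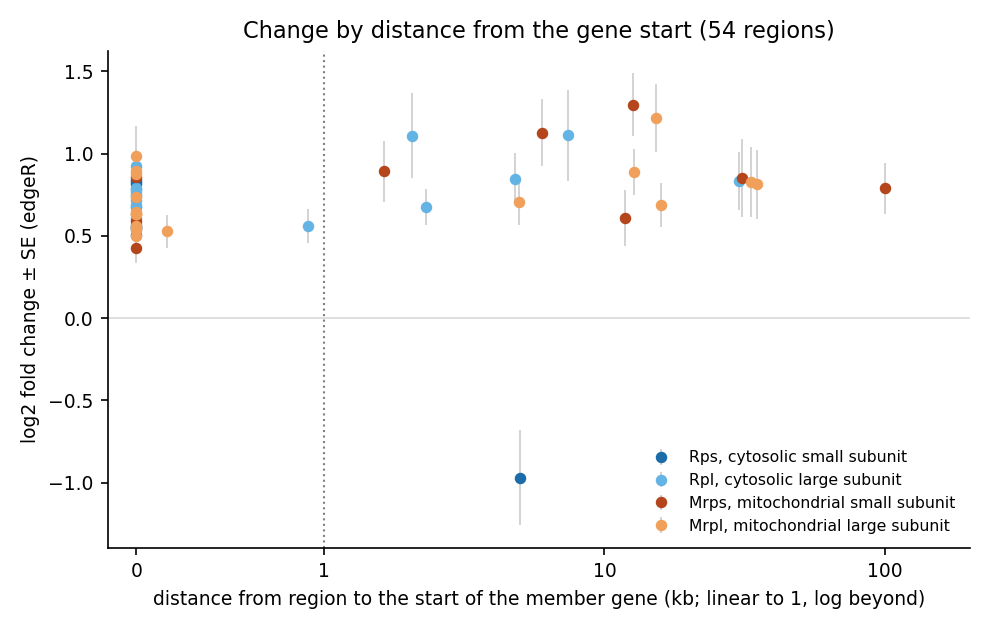
Log2 fold change with its SE against the distance from each region to the start of its gene (kb, linear to 1 and log beyond), for the 54 regions of genes with a tabulated start. The 36 regions left of the dotted line at 1 kb lie between 0.42 and 0.99, and the regions farther away reach up to 1.30, with Rps24 alone below 0.

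The animal with the highest value was not the same at and away from the start. Of the 17 gained regions away from the start, Tbx5G125R replicate 1 was the highest animal of its genotype at 9 (52.9%). Mrps23 gave 4 of these 9 and Mrpl48 gave 2. At the 36 regions at a start the same animal was highest at 8 (22.2%), and over all gained regions of the table at 27.4%. Of the Control animals, replicate 2 was highest at 47.1% of the 17 regions, 33.3% of the 36 and 30.1% of all gained regions. The shares over the table were not split by position, and the 13 regions without a tabulated start were left out. The split of the regions was made after these values were seen and has no test.

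Few regions differed from the typical listed region. When the median over all listed regions was made equal in every animal, the median change of all regions moved from 0.72 to 0.03, so that this scale shows which regions changed more or less than most. On it, 1 of the 67 regions was higher and 3 were lower at an edgeR adjusted p under 0.05, where 8.58% of all regions were higher and 12.3% lower. The higher one was the third Mrps23 region (0.61, adjusted p = 0.0191), which was no longer called without Control replicate 2, when the count was 0. The lower ones were Rps24 (-1.66, adjusted p = 2.75e-05), Mrps14 (-0.26, 0.0339) and the third Mrps28 region (-0.23, 0.0404). That count fell to 1 without Control replicate 2, Tbx5G125R replicate 3 or Tbx5G125R replicate 4. Of the 67 regions, 36 lay above 0 and 31 below. Among all 2874 regions at a protein-coding start, 66 were higher and 69 lower at the same threshold. Of the 36 at the start of a ribosomal protein gene, 0 were higher and 1 was lower. Few calls on this scale are therefore not particular to ribosomal protein genes. The ribosomal protein regions made up 0.826% to 0.840% of an animal's listed counts in Tbx5G125R and 0.816% to 0.844% in Control, so that the ranges overlapped.

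Several starts are shared with a neighbour, and accessibility there cannot be assigned to either gene. Among the regions overlapping a span, 11 of 24 at mitochondrial genes also overlapped a second protein-coding gene, against 4 of 26 at cytosolic genes. Mrpl32 shared its region with Psma2, a proteasome subunit gene, Mrpl18 with Tcp1, a chaperonin subunit gene, Mrpl47 with Ndufb5, a gene of respiratory complex I, and Mrps6 with Slc5a3, the gene of an inositol transporter. The region of Mrpl49 was also that of Fau, the gene of the small-subunit protein RPS30, so that a start of the mitochondrial and of the cytosolic ribosome were covered together (change 0.74 ± 0.13). On the cytosolic side the partners were Sphk2 at Rpl18, Zc3h10 at Rpl41 and Pidd1 at Rplp2. Small nucleolar RNA genes, whose products guide modification of ribosomal RNA, lay within 10 of 35 Rps and 20 of 56 Rpl genes. Of these host genes 5 and 8 had a region. Among mitochondrial genes only 1 of 29 Mrps and 0 of 49 Mrpl genes was a host, and the former had no region. Processed pseudogenes of ribosomal proteins copy exons and not promoters, and whether reads in exons were shared with such copies is not known for this table.

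Most genes with a region had 1 (43 genes), 5 had 2, Mrpl48 and Mrps28 had 3, and Mrpl45 and Mrps23 had 4. Chromosome 11 carried 15 regions at 8 genes, among them Rpl19, Rpl23, Rpl26, Rpl27, Mrpl45 and Mrps23, and chromosome 7 carried 11 at 8 genes. Of a list of 27 genes with a known role in disease or in one tissue, 5 had a region (Rps19, Rps24, Rpsa, Rpl3 and Rpl22l1). Other Diamond-Blackfan genes of that list, such as Rpl5 and Rpl11, had none. Genes without any region numbered 26 of 35 Rps, 36 of 56 Rpl, 21 of 29 Mrps and 34 of 49 Mrpl genes. Over all protein-coding genes, 6078 of 21887 (27.8%) had a region, beside 30.8% of the 169.

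At other genes of translation the listed regions were also mostly gained, as 88.4% of all listed regions were, and the median change of all listed regions was 0.72. Of 52 cytosolic translation factor genes 25 had a region, with 36 regions gained and 1 lost and a median change of 0.63. The largest changes with groups apart were 1.29 ± 0.31 at Eif3k and 1.11 ± 0.24 at Eef1g, a subunit gene of the elongation factor complex. Both regions were of low level. That of Eif3k lay inside the gene, 3638 bases from the start, with means of 19.25 in Control and 46.48 in Tbx5G125R. That of Eef1g lay 5071 bases outside the span, with 36.9 and 81.1. The regions at the Eif3k start and overlapping Eef1g changed by 0.82 and 0.55. The lost region was at Eif4a2, an RNA helicase gene (-0.92 ± 0.27). Ribosome biogenesis and RNA polymerase I genes had 18 gained regions and 1 lost region at 16 of 46 genes, with a median of 0.61. Fbl, the methyltransferase of ribosomal RNA, changed by 0.92 ± 0.12, and Rrp12, which helps export the subunits, by -1.10 ± 0.28. Of the 8 ribosomal proteins whose symbols fall outside the rule, Fau and Dap3 had a region, with changes of 0.74 and 0.59.

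Mitochondrial translation factors and tRNA synthetases had regions at 5 of 33 genes, with 5 gained and 2 lost. Both lost regions lay in Mrrf, the ribosome recycling factor of mitochondria. The first had 66.7, 78.9, 78.0 and 62.1 in Control and 36.8, 40.4, 35.7 and 31.9 in Tbx5G125R. The groups were apart, with a change of -0.97 ± 0.21 and an edgeR adjusted p of 0.000103. The list of S6 kinase family and mTOR complex 1 genes had 13 gained regions at 10 of 19 genes, with a median of 0.75. Beside this, 88.4% of all regions were gained with 0.72 as the median over all regions, and 27.8% of all genes had a region. The mTOR complex 1 controls translation and ribosome synthesis. The list also holds Rps6ka1, Rps6ka2, Rps6ka3 and Rps6ka5, for which such a role is not claimed here. Deptor, an inhibitor of mTOR, had 66.2, 65.0, 55.6 and 60.8 in Control and 167, 206, 183 and 221 in Tbx5G125R. That change of 1.67 ± 0.15 (adjusted p = 6.78e-10) exceeded that of each of the 67 regions, and Akt1s1, a further mTOR inhibitor, changed by 0.94 ± 0.09 (and by 0.26 with the table's median made equal, edgeR adjusted p = 0.0447).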

How the data were processed

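ATAC-seq libraries of sorted atrial cardiomyocyte nuclei were analysed (4 Tbx5G125R, and 6 Control from 4 animals). BWA, bedtools and DESeq2 are listed by the submitters, with the build mm10 and no versions. How duplicates, the transposase shift and multiply mapped reads were treated was not given in the sources used here. The authors deposited 1 table of 10010 regions they had called different, with raw read counts per library. Of these, 8846 were gained and 1164 lost in the fit made here. The paper reports the same number of sites with increased accessibility but fewer with decreased accessibility, and the reason is not known here. Estimated counts appear among the deposited columns only because the authors entered 0 as 0.1 (26 values in 4 libraries), and they were rounded. The deposited log2 fold changes and the deposited adjusted p-values are the authors' own comparison. Those p-values and the authors' geometric mean signal per group were not used, and the log2 fold changes served to set 1 number, as follows.

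Counts level off with region length (median 73.3 at 500 bp, 199.4 at 1000 bp and 293.8 in the longest class) and were read as those of the leading 500-bp bin that the table names, although no source states this. Levels are therefore per bin and not per kb of region as designed. Animals were scaled within genotype by the median ratio, and genotypes by the single log2 offset (0.29) that best matched the deposited fold changes (residual SD 0.034). The resulting calls are not independent of the authors' own.

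Each region was tested by quasi-likelihood in edgeR 4.0.16 (R 4.3.3) with 4 against 4 animals and Benjamini-Hochberg adjustment over all regions at 0.05. The biological coefficient of variation was 11.6%. This step was tested on simulated data in which few regions changed, with as many gained as lost. Such data differ from a table of preselected regions that were mostly gained, so the simulation does not cover the calls made here. Replicate numbers were not treated as pairs. Correlations between genotypes at the same number were -0.001 to 0.173, and the own number was best at replicates 1 and 3 but not at 2 and 4. Whether samples of the same number shared a batch is not settled by this. Coordinates are 1-based. Spans, starts and promoters came from RefSeq (GRCm38.p6). Alternatives were DESeq2 1.42.0, limma 3.58.1 (pseudocount 1), other scales, a minimum mean count of 50, and leaving out each animal. Genes named were, per class, the 4 largest changes without overlap, the smallest change and the highest level, together with genes with a lost region, with 3 or more regions or with a region higher on the scale of equal medians, and known-role genes with a region at their start; per other list, the 2 largest changes without overlap. Some genes that this rule picks are counted but not reported by name here. Further members were named after their values were seen. The genes and lists were chosen with earlier results of these data known.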

Additional observations from a re-analysis of the deposited data

Results flagged for a closer look

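In 4 of the 70 sets of 4 animals checked, 1 animal lay far from the other 3 by Dixon's 95% limit, and chance gives about 1 set in 20. At Mrpl34, Control replicate 4 had a scaled count of 612 against 537 to 545 in the other Control animals. At the first Mrpl48 region, Control replicate 1 had 66.2 against 48.8 to 49.98. At the second Mrps23 region, Tbx5G125R replicate 4 had 85.0 against 109.9 to 113, and at the fourth, Tbx5G125R replicate 1 had 88.1 against 60.6 to 64.8. None of these animals crossed into the other genotype's range.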

How the results depend on the processing

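With the table's median made equal in every animal (the median scale), the count of gained regions went from 66 to 1, that of lost regions from 1 to 3 and the median change from 0.71 to 0.022. With no scaling between libraries the lost count was 0 and the median 1.04; with only regions of mean scaled count 50 or more the lost count was 0, since Rps24 was filtered out. The median was 0.53 with the scale between genotypes taken from lost regions alone, which was added after the data were seen. The 66 gained and 1 lost held under DESeq2, limma, the first library of repeated animals and each animal left out (median change 0.69 to 0.73). In these settings the scale between genotypes was kept from the fit on all animals, and the regions had been called on the same animals. The counts could therefore hardly change. On the median scale, leaving out an animal gave 0 to 2 higher and 1 to 2 lower regions (1 and 3 with all animals). The mean Control level was 177 against a median of 150.4.

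Of the 34 named regions, 10 turned negative on the median scale, among them Mrpl34 (-0.15), Mrpl47 (-0.19), Mrpl48 region 3 (-0.04), Mrps14 (-0.26), Mrps23 region 2 (-0.078), Mrps28 regions 1 and 3 (-0.14 and -0.23), Rpl22l1 (-0.012) and Rps19 (-0.18). A further 22 lost their call there, since that scale sets the typical region to 0. With the replicate block, which has no basis in shared animals (samples correlated best with their own number at 2 of 4 numbers), the counts were 66 and 1 and the median 0.69. The table holds only regions called on these animals, gives no library totals, and leaves the absolute scale between genotypes resting on the authors' own.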
